A study of Mus musculus with 6 samples.

Results

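Chemokines and their receptors were examined in 344SQ tumours whose cells were separated by flow cytometry on CD133, giving 3 arrays of the CD133 high and 3 of the CD133 low fraction. The members were the genes whose symbol on the array platform begins with Ccl, Cxcl, Ccr, Cxcr or Ackr and a number, together with Cx3cl1, Cx3cr1 and Xcr1. Cxcr5 and Ccl5 were left out, as were probe sets assigned to several genes. This gave 51 genes, 31 ligands and 20 receptors, out of 18193 genes, and they were measured by 83 of 45037 probe sets. Each gene was represented by its brightest probe set over the 6 arrays. The symbols chose the members, with no measured difference between the fractions.

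344SQ is a lung adenocarcinoma line from a mouse that carried KrasLA1/+ and p53R172HdelG/+, and the tumours grew from it under the skin of syngeneic mice. All 6 arrays share that line, site and host, and the fractions differ by the sort on CD133, the surface protein encoded by Prom1. The labels give no treatment, host age or time after injection, and are silent on whether each array stands for its own animal or sort, so p-values reflect only how far these samples scatter, and that scatter may be technical. The labels call the material sorted tumour and describe no gate that would separate tumour cells from host cells. Ptprc, which encodes the leukocyte antigen CD45, had log2 values of 12.74 to 13.20 on the CD133 high arrays and 12.77 to 13.20 on the CD133 low arrays. Epcam, an epithelial adhesion molecule, had 10.20 to 10.86 on the CD133 high arrays and 10.39 to 10.47 on the CD133 low arrays. Leukocyte and epithelial transcripts were therefore measured in both fractions.

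Chemokines are small secreted proteins that direct cell movement through G protein-coupled receptors on the responding cell. They are named for the spacing of their first cysteines, as CC, CXC, CX3C or XC ligands, and the receptors carry the name of the class they bind. Inflammatory chemokines are induced in macrophages, neutrophils, stroma and tumour cells and recruit monocytes, granulocytes and effector T cells, whereas homeostatic chemokines guide lymphocytes and dendritic cells through lymphoid and barrier tissue. Atypical receptors bind chemokines without the usual G protein signal and clear them from the tissue.

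The CD133 high arrays were not alike, which bears on every value below. Across probe sets, CD133 high replicate 1 had Spearman correlations of 0.93 with each of CD133 high replicates 2 and 3 and of 0.967 to 0.976 with the CD133 low arrays. The CD133 low arrays correlated with each other at 0.979 to 0.983. The added hybridisation controls averaged 11.16, 11.85 and 11.70 on CD133 high replicates 1, 2 and 3 and 10.98 to 11.23 on the CD133 low arrays, and for Gapdh the 3' control probe set read higher than the middle one by −0.13, 0.44 and 0.46 on the CD133 high arrays and by −0.09 to −0.07 on the CD133 low arrays. Where leaving out CD133 high replicate 1 changed the call of a ligand or receptor gene at its brightest probe set, both adjusted p-values are therefore given. Without that array, every remaining CD133 high array was above every CD133 low array in both of these control measures. In that fit, a difference between the fractions cannot be told apart from a difference in hybridisation or in the Gapdh measure. Prom1 had log2 values of 6.80, 6.63 and 6.40 on the CD133 high arrays and 5.49, 5.92 and 6.06 on the CD133 low arrays. All CD133 high values were above all CD133 low values, every value lay in the background range defined below, and the difference was 0.79 (SE 0.26, adjusted p = 0.297).

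All values are log2 probe set values, each difference is the CD133 high mean minus the CD133 low mean on that scale, and tests are two-sided from limma with Benjamini-Hochberg adjustment over all 45037 probe sets. A value was said to lie in the background range when it was below the 95th percentile of the 80 probe sets for olfactory and vomeronasal receptor genes on the same array, a level of 7.21 to 7.70 on the CD133 high arrays and 7.17 to 7.44 on the CD133 low arrays. Of the ligands, 23 of 31 were above it on all CD133 high arrays and 24 on all CD133 low arrays. Of the receptors, 10 of 20 were above it on all CD133 high arrays and 12 on all CD133 low arrays. Ccl1, Ccl20, Ccl27a, Ccr3, Ccr4, Ccr8, Ccr10, Ccr1l1 and Xcr1 lay in the background range on all 6 arrays.

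One receptor gene, Cxcr6, fell in the CD133 high fraction, and no ligand passed the test. Among all genes at their brightest probe set, 0.231% were called lower and 0.022% higher, so calls were rare throughout. Over all probe sets the shares were 0.167% lower and 0.0155% higher. At an unadjusted p under 0.05, 7 receptors and 1 ligand were lower, and 1 receptor and 3 ligands were higher, against 9.94% of all genes lower and 8.3% higher. The fractions did not overlap for 7 receptors that were lower and 2 that were higher, and for 2 ligands that were lower and 3 that were higher. Over all genes this held for 12.8% lower and 10.8% higher. The median difference was −0.09 over the receptors and 0.00132 over all genes. Over the ligands it was −0.08, and 0.01 after quantile normalization. Without CD133 high replicate 1, 7 receptors were called lower and 2 higher, and 6 ligands were called lower and 4 higher, where 14.6% of all genes were called lower and 11.7% higher. CD133 high replicates 2 and 3 lay apart from all CD133 low arrays for 10 receptors and 11 ligands that were lower, against 29.2% of all genes, and for 4 receptors and 7 ligands that were higher, against 28.3%.

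**Figure D1:**
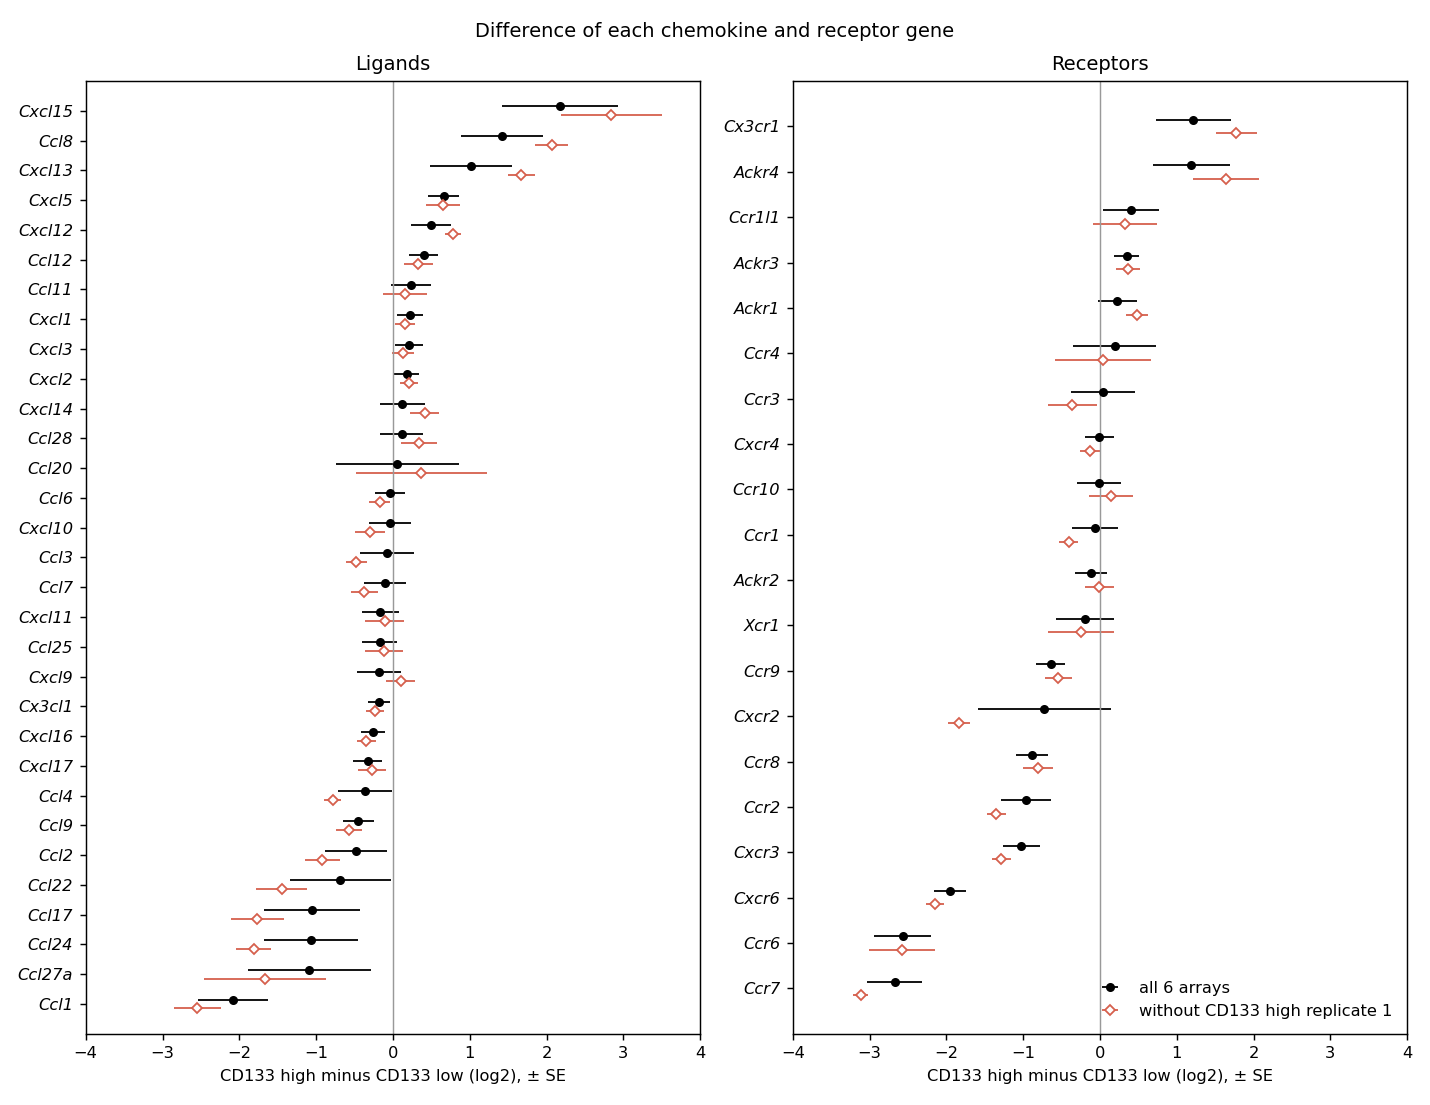
Difference CD133 high minus CD133 low (log2, horizontal axis) of each ligand and receptor gene, with the standard error of the fit as bars, from all 6 arrays (black circles) and without CD133 high replicate 1 (open diamonds). Ccr7, Ccr6 and Cxcr6 lie at the low end of the receptors at −2.67, −2.57 and −1.96, and Cxcl15 and Ccl8 at the high end of the ligands at 2.17 and 1.42, with all CD133 low values of Cxcl15 in the background range.

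The 7 receptors with an unadjusted p under 0.05 and lower values were Cxcr6, Ccr7, Ccr6, Cxcr3, Ccr8, Ccr9 and Ccr2. Cxcr6 is carried by activated and tissue-resident T cells and natural killer T cells and binds the membrane-anchored ligand Cxcl16. It had log2 values of 7.46, 6.88 and 6.89 on the CD133 high arrays and 8.99, 9.04 and 9.08 on the CD133 low arrays. The fractions were well apart, and CD133 high replicates 2 and 3 lay in the background range. As measured, Cxcr6 fell by 1.96 (SE 0.20, adjusted p = 0.0293), and the difference was −1.49 with values in the background range set to its upper end. Its second probe set lay in the background range on all CD133 high arrays and was at least 1.77-fold lower there (adjusted p = 0.0853). The call was lost with values below 5 set to 5, without a variance trend and when the hybridisation controls entered as a covariate (limma, adjusted p = 0.0766, 0.0801 and 0.084). It was also lost when any array other than CD133 high replicate 1 was left out (limma, adjusted p from 0.158 to 0.308), and its sign was negative under every alternative run.

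Ccr7 guides naive T cells, B cells and mature dendritic cells to lymph nodes. It had log2 values of 9.34, 7.99 and 8.05 on the CD133 high arrays and 11.07, 11.18 and 11.15 on the CD133 low arrays. All CD133 high arrays were below all CD133 low arrays, with CD133 high replicate 1 the nearest to them. The difference of −2.67 (SE 0.36), a 6.38-fold lower level, missed the threshold with an adjusted p of 0.0633. Without CD133 high replicate 1 it was −3.12 (adjusted p = 3.85e-04). The difference passed under 10 of 20 alternatives. Among these are a threshold of 0.1, where the adjusted p was the same 0.0633, and the setting for the background range, which altered none of the Ccr7 values.

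Ccr6, the receptor of Ccl20 on B cells, T helper 17 cells and some dendritic cells, had log2 values of 5.47, 5.90 and 4.97 on the CD133 high arrays and 7.43, 8.55 and 8.08 on the CD133 low arrays. Every CD133 high value lay in the background range, and 2 of the 3 CD133 low values lay above it. Set against the upper end of the background range, the mean of Ccr6 was at least 1.48-fold lower in CD133 high. The difference as measured was −2.57 (SE 0.37, adjusted p = 0.0742). With values in the background range set to its upper end it was −0.56 (adjusted p = 0.19). Ccr6 passed without CD133 high replicate 1, with a measured difference of −2.58 (adjusted p = 0.014).

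Cxcr3, which draws effector T cells and natural killer cells toward interferon-induced ligands, had log2 values of 8.87, 8.23 and 7.97 on the CD133 high arrays and 9.34, 9.39 and 9.41 on the CD133 low arrays. The fractions did not overlap, and the CD133 low arrays were close together. Its difference was −1.03 (SE 0.24, adjusted p = 0.246), and −1.28 (adjusted p = 0.00409) without CD133 high replicate 1. Ccr8, a receptor of regulatory and type 2 helper T cells, had log2 values of 6.01, 6.30 and 6.19 on the CD133 high arrays and 7.22, 6.89 and 7.04 on the CD133 low arrays, all in the background range, so no fold is given for it (difference −0.88, SE 0.21, adjusted p = 0.248, and 0.0383 without CD133 high replicate 1). Ccr9, the receptor that brings T cells to the small intestine and developing T cells to the thymus, had log2 values of 7.84, 8.32 and 7.97 on the CD133 high arrays and 8.88, 8.55 and 8.63 on the CD133 low arrays. Its difference was −0.64 (SE 0.19, adjusted p = 0.297). The Ccr9 probe set used is of a type that may match related sequences, and 1 of the gene's 4 other probe sets differed by 0.17 in the opposite direction.

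**Figure D2:**
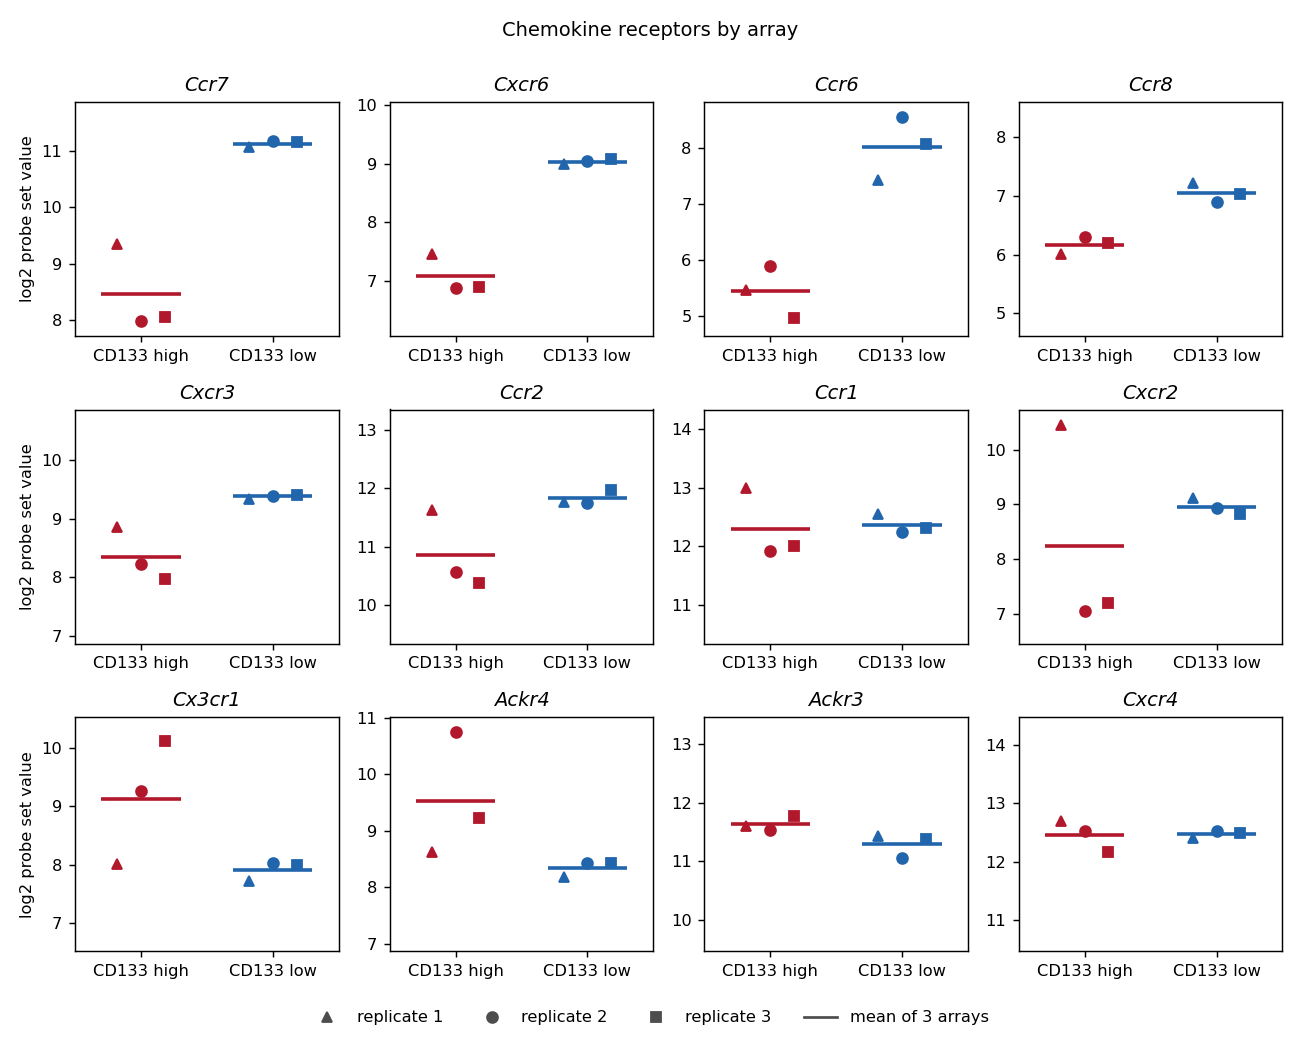
Log2 probe set values of 12 receptor genes on each array (triangle, circle and square for replicates 1, 2 and 3), with CD133 high on the left and CD133 low on the right of each panel and the mean of 3 arrays as a bar. Ccr7, Cxcr6, Ccr6, Ccr8, Cxcr3 and Ccr2 have all CD133 high values below all CD133 low values, whereas Cxcr2 and Ccr1 have CD133 high replicate 1 above and replicates 2 and 3 below the CD133 low arrays.

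The ligands of these receptors were measured unevenly. Cxcl16, the partner of Cxcr6, had log2 values of 10.48, 10.21 and 10.22 on the CD133 high arrays and 10.46, 10.74 and 10.48 on the CD133 low arrays, and only CD133 high replicates 2 and 3 were below every CD133 low array (difference −0.26, SE 0.16, adjusted p = 0.422). Its other probe set differed by 0.17 in the opposite direction (adjusted p = 0.845), with CD133 high replicate 3 the highest array at 11.16. Ccl20, the partner of Ccr6, was listed at 0 on 4 of the 6 arrays and reached 1.87 on 1 CD133 high array and 1.70 on 1 CD133 low array (difference 0.06, adjusted p = 0.978). Ccl19 and the Ccl21 genes, the partners of Ccr7, were covered only by probe sets assigned to several genes. The probe set that includes Ccl19 averaged 5.25 on the CD133 high arrays and 6.05 on the CD133 low arrays (adjusted p = 0.329), and that of the Ccl21 genes was listed at 0 on all CD133 high arrays and on 2 of the 3 CD133 low arrays. Ccl25, the partner of Ccr9, had log2 values of 6.86, 7.28 and 6.78 on the CD133 high arrays and 7.23, 7.35 and 6.86 on the CD133 low arrays, and the fractions overlapped (difference −0.17, adjusted p = 0.714).

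Ccl1, a T-cell and mast cell product that acts on Ccr8, had the smallest p of the ligands. Its log2 values were 5.54, 3.97 and 4.32 on the CD133 high arrays and 6.50, 7.07 and 6.51 on the CD133 low arrays. Although the fractions did not overlap, every value lay in the background range, so no fold is given (adjusted p = 0.212, and 0.00675 without CD133 high replicate 1). The ligands of Cxcr3 overlapped between the fractions. Cxcl10 had log2 values of 11.36, 10.26 and 10.88 on the CD133 high arrays and 10.90, 10.79 and 10.93 on the CD133 low arrays (difference −0.04, SE 0.28). Cxcl9 had 7.51, 8.27 and 8.47 on the CD133 high arrays and 7.96, 8.43 and 8.40 on the CD133 low arrays (difference −0.18, SE 0.29, adjusted p = 0.759). Its dimmer probe set had 7.56, 6.74 and 6.27 on the CD133 high arrays and 7.56, 7.50 and 7.22 on the CD133 low arrays (difference −0.57, adjusted p = 0.418). Without CD133 high replicate 1 the dimmer probe set gave −0.92 (adjusted p = 0.0383) and the brighter one 0.10 (adjusted p = 0.729). The remaining CD133 high values of the dimmer one lay in the background range. Cxcl11 had 7.12, 7.03 and 7.55 on the CD133 high arrays and 7.29, 7.73 and 7.18 on the CD133 low arrays (difference −0.16, SE 0.24, adjusted p = 0.738).

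Xcr1, the receptor of cross-presenting dendritic cells, had log2 values of 5.78, 6.31 and 4.96 on the CD133 high arrays and 5.84, 5.90 and 5.90 on the CD133 low arrays, all in the background range (difference −0.20, adjusted p = 0.801). Xcl1, a T-cell and natural killer cell product that the symbol rule does not take in, had 4.72, 4.30 and 4.81 on the CD133 high arrays and 7.54, 8.20 and 7.37 on the CD133 low arrays (adjusted p = 0.024). With all its CD133 high values in the background range, it fell at least 1.18-fold. Ccr4 and Ccr10, which mark skin-homing T cells, lay in the background range and differed by 0.19 and −0.01 (adjusted p = 0.871 and 0.99). Ccl27a, a keratinocyte ligand of Ccr10, lay in the background range as well, with a measured difference of −1.09 (SE 0.80, adjusted p = 0.497). Ccl28, a mucosal ligand of Ccr10, differed by 0.11 (SE 0.28, adjusted p = 0.851).

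Of 18 measured T and natural killer cell markers, 6 fell and 0 rose, against 0.231% and 0.022% of all genes. The median difference was −1.62, and the fractions did not overlap with CD133 high lower in 15 of them, against 12.8% of all genes. The list's mean log2 value was 6.91 to 7.42 on the CD133 high arrays and 8.49 to 8.67 on the CD133 low arrays, and none of the markers was listed at 0. Cd3e, a chain of the T-cell receptor complex, fell by 2.34 on the log2 scale (adjusted p = 0.023). Cd8b1, a co-receptor chain, and Cd5, which tempers T-cell receptor signals, fell at least 2.92-fold and at least 1.74-fold (adjusted p = 0.0186 for each), with all CD133 high values in the background range. Not all T-cell markers were lower: Cd8a, the partner chain of Cd8b1, differed by 0.31 (adjusted p = 0.511), and by 0.56 (adjusted p = 0.0207) without CD133 high replicate 1, and Cd4 lay in the background range. Of 12 measured B and plasma cell markers, 4 fell and 0 rose, with a median of −2.17 and a mean log2 value of 7.42 to 8.39 on the CD133 high arrays and 9.63 to 9.95 on the CD133 low arrays. Of 11 measured dendritic cell markers outside the chemokine family, 0 passed and the median was −0.49. At an unadjusted p under 0.05, 4 of these were lower and 0 higher, against 9.94% and 8.3% of all genes. Without CD133 high replicate 1, 13 T and natural killer cell markers were called lower and 1 higher. On the same arrays 8 B and plasma cell markers were called lower and 0 higher, and 5 dendritic cell markers lower and 0 higher. Over all genes 14.6% were called lower and 11.7% higher without that array. The part of T, natural killer, B, plasma and dendritic cells in the receptor values was not tested. In bulk RNA, fewer cells of a type and less RNA per cell cannot be told apart.

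**Figure D3:**
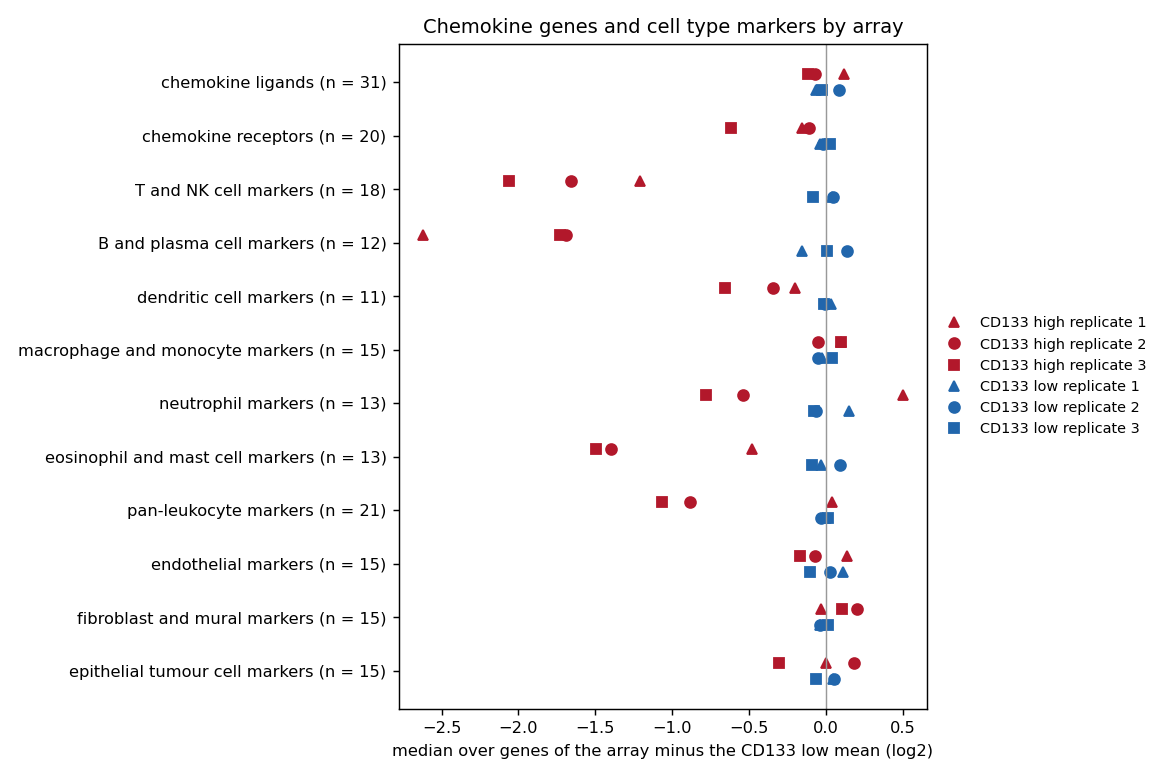
Median over the genes of each list of the array's value minus the mean of the CD133 low arrays (log2, horizontal axis), with CD133 high arrays in red above CD133 low arrays in blue and a symbol per replicate. T and natural killer cell markers lie at −1.21, −1.66 and −2.06 on CD133 high replicates 1, 2 and 3, chemokine receptors at −0.15, −0.11 and −0.61, and neutrophil markers at 0.50, −0.54 and −0.78.

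Promoter sequence of 2 of the lymphocyte receptor genes that stood lower is shown because both hold the letters TGTGGT, a motif of the RUNX factors of T cells, on 1 strand. The sequences are from RefSeq on GRCm38.p6, 5′ to 3′ on the strand of the gene, and end at the base before the start site. Cxcr6 is at chr9:123806227-123806476 on the plus strand and Cxcr3 at chrX:101734148-101734397 on the minus strand. Capitals mark the match, which reads as the reverse complement of the motif in both.
Cxcr6: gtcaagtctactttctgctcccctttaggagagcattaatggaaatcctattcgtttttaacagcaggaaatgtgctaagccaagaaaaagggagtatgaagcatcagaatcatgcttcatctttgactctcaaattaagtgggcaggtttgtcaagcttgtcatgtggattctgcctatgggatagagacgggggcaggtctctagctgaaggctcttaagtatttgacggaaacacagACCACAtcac
Cxcr3: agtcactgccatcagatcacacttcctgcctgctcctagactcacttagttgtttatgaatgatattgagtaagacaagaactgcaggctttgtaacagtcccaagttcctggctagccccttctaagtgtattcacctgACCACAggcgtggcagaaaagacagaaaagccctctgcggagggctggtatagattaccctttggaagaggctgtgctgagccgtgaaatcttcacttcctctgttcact
Within the 250 bases before the start, these letters were found on either strand in 6 of the 19 receptor windows, those of Ackr3, Ccr1, Ccr1l1, Cx3cr1, Cxcr3 and Cxcr6, and in 3 of the 25 ligand windows, against 14% of all 32851 promoter windows. Ccr1 and Cx3cr1 hold the motif too, and not all their CD133 high values were below the CD133 low values. Ackr3 also holds it, with all CD133 high values above all CD133 low values (difference 0.34). Ccr7, Ccr6, Ccr8, Ccr9 and Ccr2, which stood lower as well, are not among the genes found with it. Windows were available for 18 of the 20 receptor genes, and a part of RUNX factors in the differences was not tested.

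Ccr2, which brings monocytes from the blood, had log2 values of 11.63, 10.58 and 10.39 on the CD133 high arrays and 11.77, 11.75 and 11.98 on the CD133 low arrays. The fractions did not overlap, though CD133 high replicate 1 lay just under the CD133 low arrays. The difference was −0.97 (SE 0.33, adjusted p = 0.297), and −1.35 (adjusted p = 0.00362) without CD133 high replicate 1. The gene's 3 other probe sets differed by −0.98, −1.12 and −0.42.

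Cxcr2, the neutrophil receptor of the ELR class of CXC ligands, had the widest spread of any receptor among the CD133 high arrays. Its log2 values were 10.45, 7.05 and 7.20 on the CD133 high arrays and 9.11, 8.94 and 8.82 on the CD133 low arrays. CD133 high replicate 1 was above every CD133 low array, and CD133 high replicates 2 and 3 were below them and in the background range. The difference was −0.72 (SE 0.86, adjusted p = 0.679), and −0.42 (adjusted p = 0.419) with values in the background range set to its upper end. Without CD133 high replicate 1, Cxcr2 was at least 2.59-fold lower in CD133 high (adjusted p = 0.00271). Ccr1, a receptor of neutrophils, monocytes and macrophages, showed the same split with smaller steps at its brightest probe set. It had 12.99, 11.93 and 12.00 on the CD133 high arrays and 12.55, 12.25 and 12.31 on the CD133 low arrays (difference −0.07, SE 0.30, adjusted p = 0.924). Its other probe set had 11.01, 8.82 and 8.84 on the CD133 high arrays and 9.58, 9.21 and 9.75 on the CD133 low arrays. There the difference was 0.04 (adjusted p = 0.977), and −0.68 (adjusted p = 0.0474) without CD133 high replicate 1. Ccr3, the eosinophil receptor, had 5.94, 4.999 and 4.49 on the CD133 high arrays and 5.21, 5.09 and 5.03 on the CD133 low arrays, all in the background range (difference 0.03, adjusted p = 0.974).

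Of the 10 inflammatory CC ligands, 5 showed the same split of the CD133 high arrays, namely Ccl2, Ccl3, Ccl4, Ccl7 and Ccl24, against 7.07% of all genes. Ccl2, the main ligand of Ccr2, had log2 values of 12.40, 10.69 and 11.43 on the CD133 high arrays and 11.98, 11.89 and 12.09 on the CD133 low arrays. Ccl3, a ligand of Ccr1, had 13.77, 12.51 and 12.63 on the CD133 high arrays and 13.22, 12.90 and 13.03 on the CD133 low arrays. Ccl4, a macrophage and T-cell product, had 12.80, 11.51 and 11.56 on the CD133 high arrays and 12.44, 12.25 and 12.27 on the CD133 low arrays. In each of these genes CD133 high replicate 1 was the highest of the 6 arrays and CD133 high replicates 2 and 3 the lowest. Their differences were −0.48, −0.08 and −0.36 with all arrays (adjusted p = 0.556, 0.921 and 0.61) and −0.92, −0.48 and −0.78 without CD133 high replicate 1 (adjusted p = 0.0405, 0.0563 and 0.00899).

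Ccl24, an eosinophil attractant that acts on Ccr3, and Ccl17 and Ccl22, the ligands of Ccr4 made by dendritic cells and macrophages, also had CD133 high replicate 1 highest and replicates 2 and 3 lowest. Ccl24 had log2 values of 11.08, 9.03 and 8.65 on the CD133 high arrays and 10.80, 10.88 and 10.27 on the CD133 low arrays (difference −1.07, SE 0.61, adjusted p = 0.401). Ccl17 had 11.73, 10.11 and 9.09 on the CD133 high arrays and 11.69, 11.42 and 10.99 on the CD133 low arrays (difference −1.06, SE 0.62, adjusted p = 0.412). Ccl22 had 7.61, 5.55 and 5.09 on the CD133 high arrays and 6.58, 7.26 and 6.46 on the CD133 low arrays (difference −0.68, SE 0.65, adjusted p = 0.601). Only 1 array of each fraction was above the background range for Ccl22, and its difference turned to 0.31 with values in that range set to its upper end, so no size or direction is read from it. Without CD133 high replicate 1 the differences of Ccl24 and Ccl17 were −1.81 and −1.76 (adjusted p = 0.00709 and 0.0222). That of Ccl22 as measured was then −1.45 (adjusted p = 0.0333), with the remaining CD133 high values in the background range. Of 13 measured eosinophil and mast cell markers, 0 passed in either direction with all arrays, 8 were lower and 1 higher at an unadjusted p under 0.05, against 9.94% and 8.3% of all genes, and none was listed at 0. When CD133 high replicate 1 was left out, 14.6% of all genes were called lower and 11.7% higher. Of the 13 markers, 10 were then called lower and 1 higher. Their mean log2 value was 8.42, 7.70 and 7.62 on CD133 high replicates 1, 2 and 3 and 8.60 to 8.85 on the CD133 low arrays, and their part in the values of Ccl24 and Ccr3 was not tested.

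**Figure D4:**
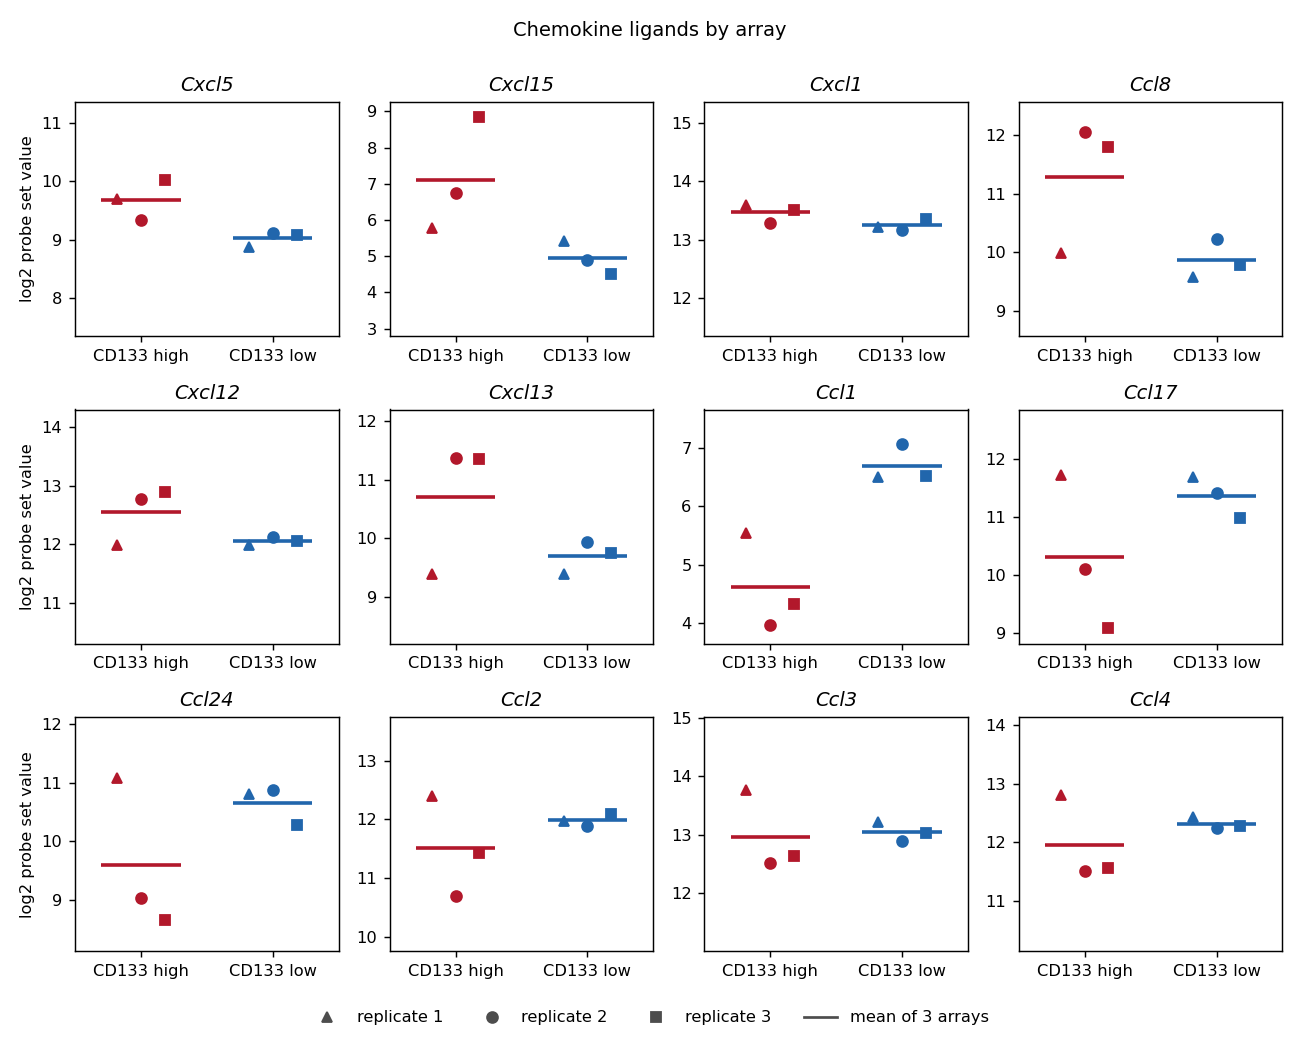
Log2 probe set values of 12 ligand genes on each array (triangle, circle and square for replicates 1, 2 and 3), with CD133 high on the left and CD133 low on the right of each panel and the mean of 3 arrays as a bar. Ccl2, Ccl3, Ccl4, Ccl17 and Ccl24 have CD133 high replicate 1 above and replicates 2 and 3 below the CD133 low arrays, and Cxcl5 has all CD133 high values above all CD133 low values.

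Counted over the whole family, 7 of 31 ligands (Ccl2, Ccl3, Ccl4, Ccl7, Ccl17, Ccl22 and Ccl24) and 3 of 20 receptors (Ccr1, Ccr3 and Cxcr2) had CD133 high replicate 1 above, and replicates 2 and 3 below, all CD133 low arrays. Over all genes 7.07% showed that pattern, and Ccr3 lay in the background range throughout, as Ccl22 did on 4 arrays. The opposite pattern, with CD133 high replicate 1 below and replicates 2 and 3 above, was seen for the ligands Cxcl12 and Cxcl14 and the receptor Ackr1, and for 6.34% of all genes. The 13 measured neutrophil markers had a mean log2 value of 11.35, 10.24 and 9.93 on CD133 high replicates 1, 2 and 3 and of 10.63 to 10.87 on the CD133 low arrays, with 0 of them past the threshold in either direction. Of these neutrophil markers, 7 were called lower and 0 higher without CD133 high replicate 1, against 14.6% and 11.7% of all genes. The 15 measured macrophage and monocyte markers had a mean of 11.61 to 11.62 on the CD133 high arrays and 11.46 to 11.59 on the CD133 low arrays, with 0 past the threshold, and without CD133 high replicate 1, 3 were called lower and 2 higher. None of these markers was listed at 0, and their part in the ligand values was not tested.

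**Figure D5:**
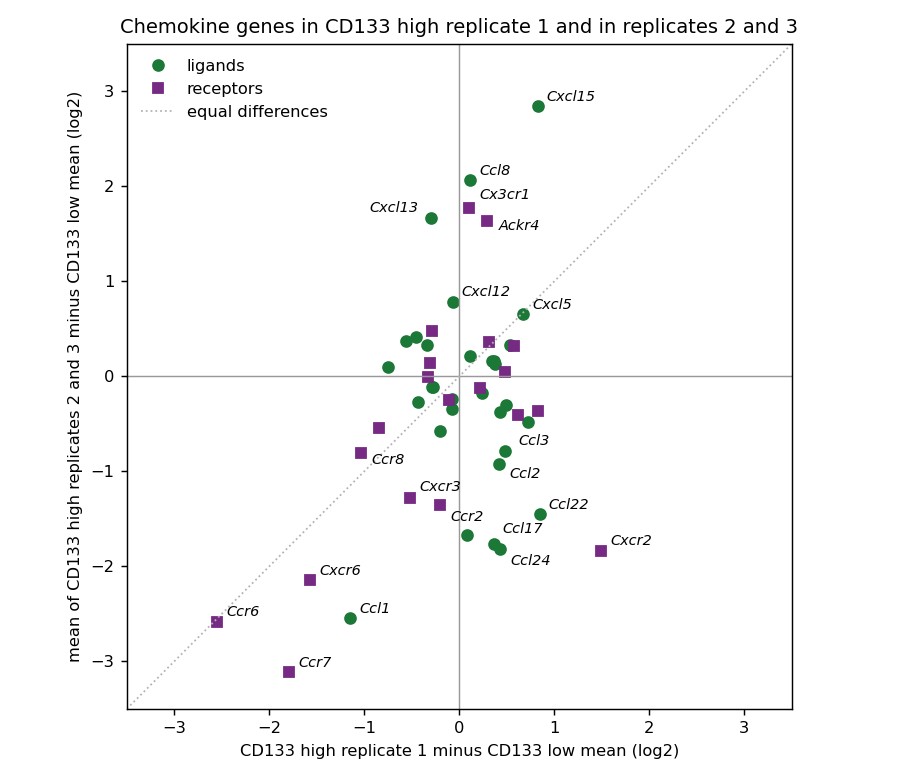
Each point is a ligand (circle) or receptor (square), with the value of CD133 high replicate 1 minus the CD133 low mean on the horizontal axis and the mean of CD133 high replicates 2 and 3 minus the CD133 low mean on the vertical axis, both in log2. Ccr7, Cxcr6, Ccr6 and Ccl1 are low on both axes, Cxcr2 lies at 1.496 and −1.83, and Ccl8 lies at 0.12 and 2.07.

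Ccl9, a macrophage and tumour cell ligand of Ccr1 in the mouse, had log2 values of 12.67, 12.50 and 12.09 on the CD133 high arrays and 12.91, 13.00 and 12.70 on the CD133 low arrays. The fractions did not overlap, with a difference of −0.45 (SE 0.20, adjusted p = 0.331), and the second probe set gave −0.43. Ccl6, another mouse ligand of Ccr1, differed by −0.04 (SE 0.20, adjusted p = 0.939). The second Ccl6 probe set, of a type that may match related sequences, split the CD133 high arrays at 13.17, 12.27 and 11.86, against 12.91, 12.95 and 12.81 on the CD133 low arrays (adjusted p = 0.488, and 0.0179 without CD133 high replicate 1). Ccl7, a monocyte attractant that acts on Ccr2, differed by −0.11 (SE 0.27, adjusted p = 0.856), with values of 12.04, 10.98 and 11.50 on the CD133 high arrays and 11.55, 11.55 and 11.74 on the CD133 low arrays. Ccl12, a mouse ligand of Ccr2, had 10.001, 9.54 and 10.05 on the CD133 high arrays and 9.28, 9.49 and 9.63 on the CD133 low arrays, with overlap (difference 0.40, SE 0.19, adjusted p = 0.349). Ccl11, the eosinophil attractant eotaxin, had 8.28, 7.72 and 8.42 on the CD133 high arrays and 7.53, 8.06 and 8.14 on the CD133 low arrays, with overlap (difference 0.23, SE 0.26, adjusted p = 0.661).

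Ccl8, which in the mouse acts on Ccr8, had log2 values of 9.98, 12.06 and 11.80 on the CD133 high arrays and 9.58, 10.23 and 9.79 on the CD133 low arrays. CD133 high replicates 2 and 3 were far above the CD133 low arrays, and CD133 high replicate 1 lay among them. The difference was 1.42 (SE 0.54, adjusted p = 0.303), and 2.07 (adjusted p = 0.00462), a 4.19-fold higher level, without CD133 high replicate 1. Its receptor gene Ccr8 was in the background range on all 6 arrays.

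All 5 ELR ligands, the CXC chemokines that draw neutrophils through Cxcr2, had positive differences, and none passed the test. The sign was the same under every alternative run for each of them. Cxcl5, an epithelial neutrophil attractant, had log2 values of 9.70, 9.34 and 10.02 on the CD133 high arrays and 8.88, 9.11 and 9.08 on the CD133 low arrays. The fractions did not overlap, and CD133 high replicate 1 was as far above the CD133 low mean, by 0.67, as the mean of replicates 2 and 3, by 0.66. With all arrays the difference was 0.66 (SE 0.20, adjusted p = 0.297). Cxcl15, also called lungkine and made by lung epithelium in the mouse, had 5.77, 6.74 and 8.84 on the CD133 high arrays and 5.43, 4.89 and 4.52 on the CD133 low arrays. CD133 high replicate 3 was the only array above the background range, so no fold is given, and the difference as measured was 2.17 (SE 0.75, adjusted p = 0.297), and 2.85 (adjusted p = 0.0341) without CD133 high replicate 1.

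Cxcl1, Cxcl2 and Cxcl3, which are close relatives induced by inflammatory signals, had small differences near the top of the scale. Cxcl1 had log2 values of 13.59, 13.30 and 13.51 on the CD133 high arrays and 13.22, 13.17 and 13.35 on the CD133 low arrays, with overlap (difference 0.22, SE 0.17, adjusted p = 0.517). Its other 2 probe sets, of types that may match related sequences, differed by 0.73 and 0.42 (adjusted p = 0.297 and 0.319). Those 2 probe sets were called higher without CD133 high replicate 1, by 0.94 and 0.52 (adjusted p = 0.00837 and 0.039). Cxcl2 had 13.92, 13.96 and 14.09 on the CD133 high arrays and 13.89, 13.73 and 13.82 on the CD133 low arrays. For Cxcl2 the fractions did not overlap, with a difference of 0.18 (SE 0.17, adjusted p = 0.596), and Cxcl3 differed by 0.21 (SE 0.18, adjusted p = 0.57). The promoters of these 3 genes are shown because they hold the same binding motif of NF-kappa B, the factor through which inflammatory signals induce them. Each is from RefSeq on GRCm38.p6, plus strand, 5′ to 3′, and ends before the start site. They are Cxcl1 at chr5:90890995-90891244, Cxcl2 at chr5:90903649-90903898 and Cxcl3 at chr5:90785851-90786100. Capitals mark the motif GGGA, any 2 bases and TTCC, which matches on both strands with an overlap.
Cxcl1: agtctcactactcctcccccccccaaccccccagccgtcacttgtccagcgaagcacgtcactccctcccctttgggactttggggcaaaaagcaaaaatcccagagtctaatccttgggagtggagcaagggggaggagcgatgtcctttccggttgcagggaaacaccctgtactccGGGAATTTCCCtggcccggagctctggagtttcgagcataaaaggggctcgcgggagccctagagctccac
Cxcl2: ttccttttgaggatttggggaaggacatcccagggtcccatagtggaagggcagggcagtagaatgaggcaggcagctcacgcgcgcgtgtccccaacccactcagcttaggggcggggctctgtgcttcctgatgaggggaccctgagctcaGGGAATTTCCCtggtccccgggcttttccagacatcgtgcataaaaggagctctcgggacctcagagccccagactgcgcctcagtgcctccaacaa
Cxcl3: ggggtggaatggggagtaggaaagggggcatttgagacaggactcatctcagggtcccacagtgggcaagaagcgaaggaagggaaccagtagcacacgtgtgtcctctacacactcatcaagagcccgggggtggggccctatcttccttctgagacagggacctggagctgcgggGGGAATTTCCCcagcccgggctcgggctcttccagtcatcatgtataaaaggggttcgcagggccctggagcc
The run in capitals reads GGGAATTTCCC in all 3. It ends 60 bases before the start of Cxcl1, 86 before that of Cxcl2 and 62 before that of Cxcl3. The motif was found in 5 of the 25 ligand windows, those of Ccl1, Cxcl1, Cxcl2, Cxcl3 and Cxcl10, and in 1 of the 19 receptor windows, that of Ccr3. It occurs in 1.21% of all promoter windows. Of the other genes with it, Ccl1 and Ccr3 lay in the background range, and Cxcl10 differed by −0.04 with an SE of 0.28.

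Of the 13 measured homeostatic and dual ligands, 0 were called with all arrays. Without CD133 high replicate 1, their median was −0.23, and 3 were called lower and 2 higher, against 14.6% and 11.7% of all genes. The 2 called higher were Cxcl12 and Cxcl13. Cxcl12, the ligand of Cxcr4 made by fibroblasts and endothelium, had log2 values of 11.98, 12.77 and 12.90 on the CD133 high arrays and 11.98, 12.12 and 12.05 on the CD133 low arrays. The difference was 0.50 (SE 0.26, adjusted p = 0.369), and 0.79 (adjusted p = 0.0084) without CD133 high replicate 1, and the next probe set in brightness gave 0.83. Its signalling receptor Cxcr4 had 12.70, 12.53 and 12.17 on the CD133 high arrays and 12.40, 12.53 and 12.49 on the CD133 low arrays, with overlap (difference −0.0089, SE 0.18, adjusted p = 0.986). Ackr3, the atypical receptor that clears Cxcl12, had 11.60, 11.53 and 11.77 on the CD133 high arrays and 11.42, 11.06 and 11.38 on the CD133 low arrays. Its fractions did not overlap (difference 0.34, SE 0.17, adjusted p = 0.348).

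Cxcl13, which draws B cells into follicles, had log2 values of 9.39, 11.37 and 11.35 on the CD133 high arrays and 9.39, 9.93 and 9.76 on the CD133 low arrays. CD133 high replicates 2 and 3 were above, and replicate 1 was at the lower edge of, the CD133 low arrays (difference 1.02, SE 0.53, adjusted p = 0.372). Without CD133 high replicate 1 the difference was 1.67 (adjusted p = 0.00478), a 3.19-fold higher level, while B and plasma cell markers had a median difference of −1.71 on the same arrays. Ccl8 and Cxcl13 are shown as the ligands with the largest positive differences above the background range, and both have a TATA box, the letters TATAAA on the strand of the gene, in capitals. The sequences are from RefSeq on GRCm38.p6, plus strand, 5′ to 3′, with Ccl8 at chr11:82114935-82115184 and Cxcl13 at chr5:95956689-95956938.
Ccl8: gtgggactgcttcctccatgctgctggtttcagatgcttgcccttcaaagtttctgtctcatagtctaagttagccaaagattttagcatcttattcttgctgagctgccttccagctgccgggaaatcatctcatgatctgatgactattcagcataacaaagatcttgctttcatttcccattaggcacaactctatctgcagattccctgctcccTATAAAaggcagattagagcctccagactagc
Cxcl13: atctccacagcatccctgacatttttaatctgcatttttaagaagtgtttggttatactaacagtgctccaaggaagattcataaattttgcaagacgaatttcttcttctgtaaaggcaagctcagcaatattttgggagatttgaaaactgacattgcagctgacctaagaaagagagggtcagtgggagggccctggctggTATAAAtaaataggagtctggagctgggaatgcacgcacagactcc
The TATA box ends 26 bases before the start of Ccl8 and 40 before that of Cxcl13. It was found in 9 of the 25 ligand windows and in 3 of the 19 receptor windows, against 7.59% of all promoter windows. Those ligand genes were Ccl8, Ccl9, Ccl12, Ccl25, Cxcl3, Cxcl9, Cxcl13, Cxcl15 and Cx3cl1, and their differences had either sign.

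Cxcl14, an epithelial and fibroblast chemokine, gave opposite answers at its 2 probe sets. The brighter one had log2 values of 11.07, 11.76 and 12.12 on the CD133 high arrays and 11.24, 11.71 and 11.64 on the CD133 low arrays (difference 0.12, adjusted p = 0.843). The other had 10.85, 10.55 and 10.33 on the CD133 high arrays and 11.15, 11.52 and 11.25 on the CD133 low arrays, a difference of −0.73 (SE 0.19, adjusted p = 0.276) with no overlap. Without CD133 high replicate 1 this dimmer probe set gave −0.87 (adjusted p = 0.0153) and the brighter one 0.41 (adjusted p = 0.181). Cxcl17, a mucosal chemokine, had 7.24, 7.60 and 7.20 on the CD133 high arrays and 7.69, 7.77 and 7.56 on the CD133 low arrays, close to the background range (difference −0.33, adjusted p = 0.406). Over the 20 ligand and receptor genes with several probe sets, 23 of the 32 other probe sets had the sign of the brightest one, and none of the 32 passed the test.

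The CX3C pair had differences of opposite sign. Cx3cr1, the receptor of patrolling monocytes and tissue macrophages, had log2 values of 8.01, 9.26 and 10.11 on the CD133 high arrays and 7.72, 8.03 and 7.99 on the CD133 low arrays. The difference was 1.22 (SE 0.49, adjusted p = 0.312), and 1.77 (adjusted p = 0.0113) without CD133 high replicate 1. At its dimmer probe set the difference was 0.28 (adjusted p = 0.477). Its ligand Cx3cl1, fractalkine, had 8.45, 8.34 and 8.26 on the CD133 high arrays and 8.43, 8.60 and 8.57 on the CD133 low arrays, with overlap (difference −0.18, SE 0.15, adjusted p = 0.535).

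Among atypical receptors, Ackr4, which clears the Ccr7 ligands and Ccl25, had log2 values of 8.63, 10.75 and 9.22 on the CD133 high arrays and 8.18, 8.44 and 8.43 on the CD133 low arrays. All CD133 high arrays were higher, and CD133 high replicate 2 stood well above the rest (difference 1.19, SE 0.50, adjusted p = 0.32). The difference of Ackr4 was 1.64 without CD133 high replicate 1 (adjusted p = 0.0482) and 0.58 without CD133 high replicate 2 (adjusted p = 0.53). Ackr4 also passed with values in the background range set to its upper end (limma, adjusted p = 7.52e-04). None of its own values lay in that range, so its difference stayed at 1.19 and this pass is no separate evidence. Ackr1, which is found on venules and red blood cell precursors, differed by 0.23 (SE 0.25, adjusted p = 0.653), and Ackr2, which clears inflammatory CC chemokines, by −0.11 (SE 0.21, adjusted p = 0.793). Ccr1l1, a gene beside Ccr1, lay in the background range and differed by 0.41 (adjusted p = 0.575).

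Neighbouring genes had differences of the same sign in some neighbourhoods and not in others, and a link of position to direction was not tested. Over all 18193 genes, 9112 differences were positive and 9061 negative. In the gene order of RefSeq on GRCm38.p6, with at most 2 other protein-coding genes between neighbours, the ELR ligands Cxcl1, Cxcl2, Cxcl3, Cxcl5 and Cxcl15 formed a neighbourhood whose 5 differences were all positive, from 0.18 to 2.17. Ccl3, Ccl4, Ccl6 and Ccl9 lie together, and their 4 differences were all negative, from −0.45 to −0.04. In the neighbourhood of Ccl1, Ccl2, Ccl7, Ccl8, Ccl11 and Ccl12, 3 were positive and 3 negative, from −2.08 for Ccl1 to 1.42 for Ccl8. The receptor neighbourhood of Ccr1, Ccr1l1, Ccr2, Ccr3, Ccr9, Cxcr6 and Xcr1 held 5 negative and 2 positive differences. Cx3cr1 and Ccr8 are neighbours and differed by 1.22 and −0.88. In the neighbourhood of Cx3cl1, Ccl17 and Ccl22, 3 were negative, from −1.06 to −0.18, as were both Cxcl9 and Cxcl10. The signs of Ccl3, Ccl6 and Cxcl10 changed under 5, 4 and 3 of 20 alternatives, and no ELR ligand changed sign. Apart from Cxcr6, no gene of these neighbourhoods passed the test.

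Another 6 motifs were searched in the same windows on both strands, and none stood in more than 3 ligand or 2 receptor windows. The interferon response motif (TTTC, any 2 bases and TTTC) was found for Cxcl10 and Cxcl14 among the ligands and for no receptor, against 2.98% of all windows. AP-1 (TGANTCA) was found in 3 ligand and 2 receptor windows against 6.75% of all, and GAS (TTCNNNGAA), the motif of STAT factors, in 2 and 2 against 7.02%. ETS (GAGGAAG) was found in 3 ligand and 2 receptor windows against 10.6% of all, the E-box (CACGTG) in 1 and 1 against 6.02%, and the T-box (AGGTGTGA) in 1 ligand window and 0 receptor windows against 1.12%.

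Genes that carry chemokine signals inside the cell, such as G protein subunits, phosphoinositide 3-kinases and arrestins, showed no call with all arrays. Of 51 measured members of this list, 0 rose and 0 fell, and at an unadjusted p under 0.05 there were 4 higher and 5 lower, against 8.3% and 9.94% of all genes. The median difference was −0.12. With CD133 high replicate 1 left out, 9 were called higher and 17 lower, against 11.7% and 14.6% of all genes. Wasl, a regulator of actin assembly, differed by 0.58 (adjusted p = 0.288), and Pik3cg, the kinase subunit that G proteins activate in leukocytes, by −0.95 (adjusted p = 0.292). Both were called without CD133 high replicate 1, at 0.61 and −1.20 (adjusted p = 0.0417 and 0.0134). Of the 6 measured genes of chemokine biology outside the symbol rule, Xcl1 alone passed. Ccrl2, a receptor-like gene of activated myeloid cells, had log2 values of 13.26, 11.78 and 11.77 on the CD133 high arrays and 12.76, 12.52 and 12.69 on the CD133 low arrays, with CD133 high replicate 1 highest and replicates 2 and 3 lowest. The difference of Ccrl2 was −0.39 (adjusted p = 0.631), and −0.88 (adjusted p = 0.00783) without CD133 high replicate 1. The platelet chemokines Ppbp and Pf4 differed by 0.25 and 0.04 (adjusted p = 0.641 and 0.914).

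Markers of the other cell types gave no call in either direction with all arrays. The median difference was 0.09 over 15 measured endothelial markers, 0.01 over 15 fibroblast and mural cell markers, −0.13 over 15 epithelial tumour cell markers and −0.67 over 21 pan-leukocyte markers. The pan-leukocyte median was 0.04, −0.88 and −1.07 on CD133 high replicates 1, 2 and 3. Of the pan-leukocyte genes, 8 were lower and 0 higher at an unadjusted p under 0.05, against 9.94% and 8.3% of all genes. The calls without CD133 high replicate 1 were 14 pan-leukocyte markers lower and 2 higher, against 14.6% and 11.7% of all genes. In the same fit, 3 endothelial markers were called lower and 3 higher, and 2 fibroblast and mural cell markers lower and 3 higher. Of the epithelial tumour cell markers, 2 were called lower and 2 higher there.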

How the data were processed

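RNA of both fractions had been made into biotinylated cRNA and hybridised to Affymetrix arrays, per the labels' protocols. Each deposited value is the log2 signal of a probe set, a unit read from the range of the values. The labels do not record how the authors summarised or normalised it, and they name an array with fewer probe sets than the table has. After 64 control probe sets were left out, 45037 were tested, and gene names came from the platform annotation. CD133 high was set against CD133 low in R 4.3.3 with limma 3.58.1 on the deposited log2 values, with a variance trend, no covariate, no filter and a threshold of 0.05. Replicates were numbered in accession order. No 2 arrays shared more than 23 equal values above 0. With 3 arrays a fraction, the number of arrays limits the precision, and an exact permutation test of a single gene could not go below p = 0.1. The fit was tested on simulated data. The members, lists, markers and tests were chosen with earlier results of these data known. Every member was named, and values by array were given for the 10 ligands and 8 receptors with the smallest p and their ligands or receptors. Other members with values by array were chosen after their values were seen. Up to 3 genes of a list outside the family were to be named. Promoter windows, the 250 bases before the start in RefSeq on GRCm38.p6, were found for 40 members, in 44 windows. The alternatives changed the normalization, the filter or floor on low values, the variance model, the array weights, the threshold, the probe set taken for a gene or the covariate, or left out an array.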

Additional observations from a re-analysis of the deposited data

How the results depend on the processing

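The counts of called probe sets, ligands and receptors depended on the array set and on the variance model. With all arrays, 7 probe sets rose and 75 fell. Leaving out each array in turn gave 0 to 4277 probe sets that rose and 0 to 5326 that fell, 0 to 4 ligands that rose and 0 to 6 that fell, and 0 to 2 receptors that rose and 0 to 7 that fell. All the high values came from leaving out CD133 high replicate 1, and no other array left out gave a member called or more than 1 probe set called. Array weights gave 2133 probe sets that rose and 2675 that fell, with 4 ligands and 1 receptor that rose and 2 ligands and 6 receptors that fell. Receptors that fell numbered 3 with equal medians (12 probe sets rose, 152 fell), equal 75th percentiles (13 and 144), the dimmest 50% left out (11 and 164), the dimmest 25% left out (180 fell), a robust trend (13 and 172), a threshold of 0.1 (25 and 170) and averaging all probe sets per gene (13 rose). They numbered 0 with values below 5 set to 5 (31 probe sets fell), no variance trend (1 rose, 6 fell) and the hybridisation controls as a covariate (13 rose). The receptor median was −0.38 with the dimmest 50% left out, by construction over fewer genes, and 0.08 without CD133 high replicate 3. The ligand median was 0.16 with the covariate, for which the cause was not tested.

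Setting values below the background level to it, an alternative chosen after seeing the data, gave 1099 probe sets that rose and 1196 that fell, 2 ligands and 2 receptors that rose, 2 ligands and 4 receptors that fell, and a ligand median of 0.12. The receptor median was 0.08 there, against −0.09 with the values as measured. By construction this setting removes the spread of dim probe sets. It also gives any gene in the background range on all 6 arrays a difference of 0.178, because the level averaged higher on the CD133 high arrays. Both medians include such genes, so their signs are not read as a result. Cxcr6 kept its call under 12 of 20 alternatives. No paired analysis was possible because the labels give the arrays no replicate numbers.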
